A study of Mus musculus with 12 samples.

Results

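Both arms of the miR-21 hairpin were followed through the 4 groups of samples, the guide strand miR-21 (assay hsa-miR-21_000397) and the passenger strand miR-21* (assay mmu-miR-21#_002493). They were chosen by assay name and are 2 of the 619 miRNA assays listed in the Ct table of a TaqMan OpenArray, a panel of qPCR assays that held more miRNAs than the table lists. The readout of an assay is the cycle at which the signal crosses a threshold (Ct), which is lower the more miRNA there is, by about 1 cycle for each doubling. Both had a Ct below 28 in all 12 samples, as did 335 assays in total. The study compared hippocampal miRNAs of wild-type (wt) mice and mice without the ATP-gated P2X7 receptor, without and after status epilepticus, a prolonged seizure. Each group held 3 samples, and each sample was 1 μg of total RNA from a pool of 2 ipsilateral hippocampi of different mice, so that differences between single mice within a pool were averaged out.

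All mice were male, of strain C57BL/6 by the sample labels, given as 8 weeks old there and as 8 to 12 weeks in the methods. The wt control and P2rx7-/- control groups were injected with vehicle (0 μg kainic acid) into the amygdala. The wt post-SE and P2rx7-/- post-SE groups received 0.3 μg of kainic acid there, an agonist of glutamate receptors that triggers status epilepticus. All 4 groups received 6 mg/kg of the anticonvulsant lorazepam 40 min after the injection, and hippocampi were taken at 8 h. The methods name the P2rx7-/- line 6NTac;B6N-P2rx7tm1d(EUCOMM)Wtsi/Ieg, and its allele lacks an exon of the receptor gene. The OpenArray measures miRNAs, so the knockout itself could not be checked in these values. RNA degradation was not assessed, per the labels.

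A miRNA hairpin is cut into a duplex, of which the guide strand is usually loaded into Argonaute and kept, while the passenger strand is mostly degraded. The guide strand pairs with target mRNAs through its seed, bases 2 to 8. miR-21 is abundant in many tissues, its gene is a known target of the activity-induced transcription factor AP-1, and it has been studied in brain injury, in reactive glia and after seizures.

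The sequences of both arms are shown because each assay reads 1 of them, and those of the other miRNAs named miR-21 because they differ from the guide by few bases. The passenger strands of miR-27a and miR-335 are shown because, as given further on, they separated the same samples as miR-21*. They are the RefSeq mature sequences (build GRCm38.p6), written 5′ to 3′ with the seed in capitals and grouped by seed, the first 2 sharing one. Both arms of miR-21 matched an entry of that table. The guide assay carries the human name, and the human and mouse guide strands are the same.
mmu-miR-21a-5p: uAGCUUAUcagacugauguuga
mmu-miR-21c: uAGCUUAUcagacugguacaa
mmu-miR-21b: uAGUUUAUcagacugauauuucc
mmu-miR-21a-3p: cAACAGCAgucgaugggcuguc
mmu-miR-27a-5p: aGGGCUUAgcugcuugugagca
mmu-miR-335-3p: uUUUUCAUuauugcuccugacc
The guide strand (mmu-miR-21a-5p) lies at chr11:86584120-86584141 and the passenger strand (mmu-miR-21a-3p) at chr11:86584082-86584103, both on the minus strand, with 16 bases between them. The others lie at chr8:128278188-128278208 (mmu-miR-21c, minus strand), chr3:29636768-29636790 (mmu-miR-21b, plus strand), chr8:84208685-84208706 (mmu-miR-27a-5p, plus strand) and chr6:30741354-30741375 (mmu-miR-335-3p, plus strand). The miR-21 hairpin spans 92 bases (chr11:86584067-86584158) within the span of the protein-coding gene Vmp1 (chr11:86583858-86683836), and its near end is 209 bases from the end of that gene. Exons and UTRs of Vmp1 were not analysed here.

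Among 1679 mature names in the table, 2 have the guide's seed, mmu-miR-21a-5p and mmu-miR-21c, and 1 has the passenger's seed, mmu-miR-21a-3p itself. miR-590-5p, known to have the seed of the guide, has no entry there, and its assay (hsa-miR-590-5p) gave a Ct in 7 samples (median 25.1) and was not compared. Counted from the 5′ end of the guide, mmu-miR-21c differs over 21 bases by 5 substitutions (A16G, G18A, U19C, U20A and G21A). mmu-miR-21b differs over 22 bases by 4 (C4U, G18A, G21U and A22C), of which C4U lies in the seed. mmu-miR-21b and mmu-miR-21c have no assay of their own among the 619, so a share of their signal in the guide assay cannot be told apart from miR-21.

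One sample stood apart before any comparison was made. The values of wt control 1 ranked the 335 assays less like the other samples did, with a median Spearman correlation of 0.725 to the other 11 samples against medians of 0.893 to 0.962 for those 11 (across assays, which are not independent replicates). Its repeated wells of snoRNA135, a small nucleolar RNA used as a control, had an SD of 3.63 cycles, while in the other samples the SD ran from 0.197 to 1.38 cycles. In wt control 1, 38.2% of assays lay over 1 cycle from the median of the other samples after normalization, and in the others 5.07% to 24.5% did. By the same measures P2rx7-/- control 2 was an ordinary sample (median correlation 0.958, snoRNA135 SD 0.200 cycles, 6.27% of assays), although its miR-21* value was far from those of its group. Each miRNA assay was read once per sample, so no technical error can be given for a single value. Results are given with all samples and, where it matters, without wt control 1, without P2rx7-/- control 2 and without both.

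The Ct values of miR-21*, the passenger strand, were 25.2, 25.3 and 23.9 in the wt control samples and 25.6, 23.1 and 25.7 in the P2rx7-/- control samples. After status epilepticus they were 23.3, 22.5 and 22.3 in wt and 22.3, 23.0 and 22.7 in P2rx7-/- mice. The passenger strand was thus read about 2 cycles earlier in most post-SE samples, and P2rx7-/- control 2 was the control sample that lay within the post-SE range of Ct.

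After subtraction of each sample's mean Ct over the 335 assays (global mean normalization), the normalized level (-ΔCt, on a log2 scale) of miR-21* was -6.12, -6.69 and -5.64 in wt control samples. It was -6.40, -4.16 and -6.55 in P2rx7-/- control samples. After status epilepticus it was -4.04, -3.57 and -3.67 in wt and -3.78, -3.91 and -3.58 in P2rx7-/- samples. All 6 post-SE samples were higher than all 6 control samples, with a gap of 0.12 between the lowest post-SE and the highest control sample, P2rx7-/- control 2. The same held for 4 of the 335 assays (1.19%), the others being miR-27a*, miR-335* and miR-685, and for the same number of assays without wt control 1, without P2rx7-/- control 2 and without both. In bulk hippocampus, a change in the cells present and a change of miRNA per cell cannot be told apart.

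**Figure D1:**
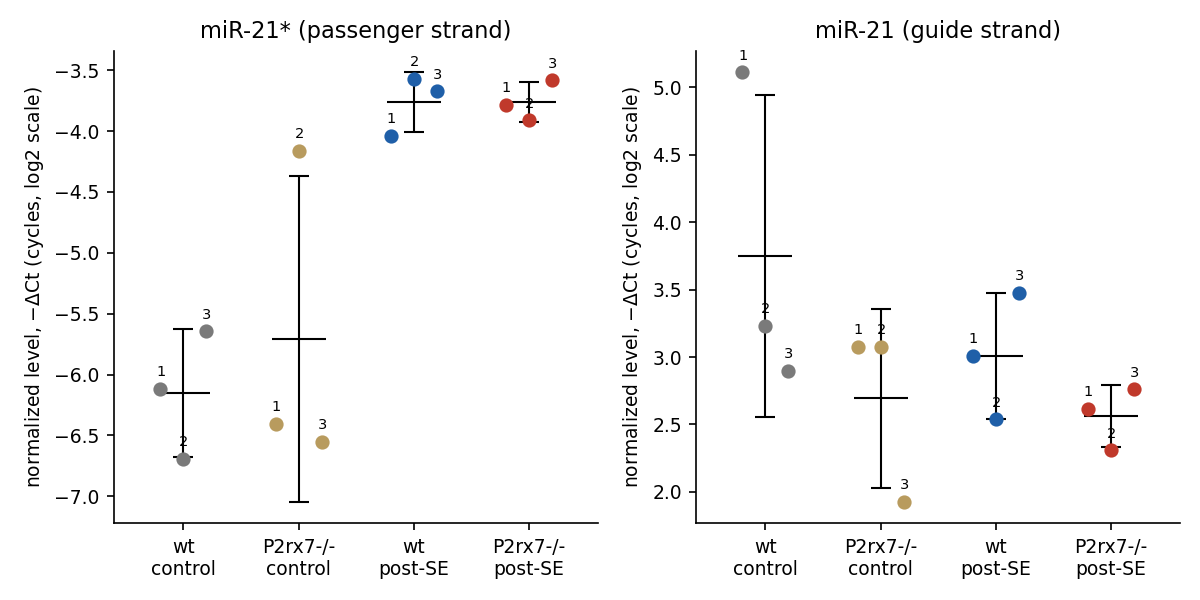
Normalized level (-ΔCt, in cycles on a log2 scale) of miR-21* (left) and miR-21 (right) in every sample, with replicate numbers beside the points. Horizontal lines are group means and error bars the SD (n = 3). All post-SE samples lie above all control samples for miR-21*, and the groups overlap for miR-21.

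The difference in miR-21* was tested with limma over all 335 assays, with 1 coefficient per group. Averaged over both genotypes, the post-SE level was 2.17 higher, which is 4.49-fold (95% confidence interval 2.40 to 8.40), and higher in 6 of 6 post-SE samples than the control mean. Its adjusted p was 0.0521, just short of the threshold of 0.05, and it ranked 2 of 335 by p after miR-685. limma called 0 of 335 assays (0%) in this comparison, and 11 had an unadjusted p under 0.05. The two-sided exact permutation test, with samples exchanged within each genotype, gave p = 0.005, the smallest p it can give. Without P2rx7-/- control 2 the difference was 2.55 and passed (adjusted p = 0.000803, limma), and without both samples it was 2.56 (adjusted p = 0.00219, limma). P2rx7-/- control 2 was singled out by its own miR-21* value, the highest of the controls. A pass without it depends on the value tested, and cannot decide whether the difference holds. The difference also passed with the median Ct as normalizer (2.19, adjusted p = 0.0404, limma) and with a Ct limit of 26 (2.15, adjusted p = 0.0446, limma). Without wt control 1, the sample that stood apart, it was 2.18 and did not pass (adjusted p = 0.110, limma). The difference passed in 4 of 24 alternatives, and in 1 of the 12 with a single sample left out. Over all alternatives the adjusted p ran from 0.000803 to 0.283 (limma), the latter with snoRNA202 as normalizer.

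Within each genotype the level of the passenger strand was higher in every post-SE sample. In wt mice the difference was 2.39 ± 0.57 (standard error; adjusted p = 0.316, limma), with fold changes of 4.32, 5.97 and 5.56 relative to the wt control mean. In P2rx7-/- mice it was 1.95 ± 0.57 (adjusted p = 0.998, limma), with fold changes of 3.79, 3.46 and 4.36 relative to the P2rx7-/- control mean. In both genotypes all 3 post-SE samples were above all 3 controls, which was so for 5.97% of assays in wt and 3.88% in P2rx7-/- mice. These shares rose to 12.8% in wt without wt control 1 and to 9.25% in P2rx7-/- mice without P2rx7-/- control 2. The two-sided exact permutation test gave p = 0.1 in each genotype, the smallest p that 3 samples against 3 allow. limma called 0 of 335 assays in either comparison, with 13 and 10 assays at an unadjusted p under 0.05. Without P2rx7-/- control 2, both differences passed (2.39 with adjusted p = 0.0150 in wt and 2.72 with adjusted p = 0.0130 in P2rx7-/- mice, limma). These were the lowest adjusted p of any alternative in either genotype. The wt value itself was the same, because that sample enters it through the shared spread alone. In each genotype it was the 1 of 12 single samples without which the difference passed. Since it was singled out by its own miR-21* value, these passes cannot decide whether the differences hold. Without both samples, the adjusted p was 0.0523 in wt and 0.0210 in P2rx7-/- mice (limma).

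In the study, a miRNA was taken as up-regulated at a fold change above 1.5 and as down-regulated below 0.6. The rule is applied here to the average over the 3 samples of a group, and for P2rx7-/- mice also relative to their own controls, a reference that the methods do not name. By this rule miR-21* was up-regulated after status epilepticus, with an average fold change of 5.28 ± 0.857 (SD, n = 3) in wt mice and 3.87 ± 0.451 in P2rx7-/- mice, each relative to the controls of that genotype. The rule called 23.3% and 17.9% of all 335 assays up in these comparisons. Without P2rx7-/- control 2 the average in P2rx7-/- mice was 6.61, and 22.1% of assays were called up.

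miR-21, the guide strand, did not separate the control from the post-SE samples. Its Ct was 13.9, 15.3 and 15.3 in wt control samples and 16.1, 15.9 and 17.2 in P2rx7-/- control samples. After status epilepticus it was 16.3, 16.4 and 15.1 in wt and 15.9, 16.8 and 16.3 in P2rx7-/- samples. The guide assay gave a low Ct throughout and ranked between 32 and 101 of the 335 assays in the 12 samples (1 being the lowest Ct), whereas the passenger assay ranked between 275 and 333. Ranks of different assays also depend on how well each assay amplifies.

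The normalized level of miR-21 was 5.11, 3.23 and 2.90 in wt control samples and 3.08, 3.08 and 1.93 in P2rx7-/- control samples. After status epilepticus it was 3.01, 2.54 and 3.48 in wt and 2.62, 2.31 and 2.76 in P2rx7-/- mice. The highest value was that of wt control 1, the sample that stood apart, and the groups overlapped. By group mean the order was wt control (3.75 ± 1.19, SD, n = 3), wt post-SE (3.01 ± 0.47), P2rx7-/- control (2.69 ± 0.66) and P2rx7-/- post-SE (2.56 ± 0.23), and no neighbours in this order differed by more than the larger of their SDs. For miR-21* the order was P2rx7-/- post-SE (-3.76 ± 0.17), wt post-SE (-3.76 ± 0.24), P2rx7-/- control (-5.71 ± 1.34) and wt control (-6.15 ± 0.52), with the step between wt post-SE and P2rx7-/- control exceeding the SD of either group.

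Over both genotypes the difference in miR-21 after status epilepticus was -0.44 ± 0.40 (standard error), with a 95% confidence interval from -1.34 to 0.46 that holds no change as well as a rise of up to 1.38-fold (adjusted p = 0.834, limma; two-sided exact permutation p = 0.365). It was -0.74 ± 0.57 in wt (adjusted p = 0.712, limma) and -0.13 ± 0.57 in P2rx7-/- mice (adjusted p = 0.998, limma). Without wt control 1 the difference over both genotypes was -0.09 and that in wt mice was -0.06, and without both samples the value over both genotypes was 0.000994. The average fold change was 0.620 ± 0.199 (SD, n = 3) in wt mice and 0.921 ± 0.143 in P2rx7-/- mice, each relative to the controls of that genotype, neither of which the rule calls. The wt value lies close to the limit of 0.6. It was 0.995 without wt control 1, and it was called down by the geometric mean (0.599), with snoRNA202 as normalizer (0.489) and without normalization (0.523). It was also called down without wt control 2 (0.519), without wt control 3 (0.462) and without wt post-SE 3 (0.516). snoRNA202, another small nucleolar RNA used as a control, read close to the lowest Ct listed for any miRNA, 10.1. Its median Ct ran from 10.1 in wt post-SE 3 to 10.5 in P2rx7-/- control 2. In wt control 3 it gave a Ct in 3 of 16 wells. All values with snoRNA202 as normalizer carry this limit.

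The difference between both arms within a sample, Ct of miR-21 minus Ct of miR-21*, is the log2 of passenger over guide and needs no normalizer, since the same value would be subtracted from both. Its level depends on both assays, so only its change between samples is read. It was -11.23, -9.92 and -8.54 in wt control samples and -9.48, -7.24 and -8.48 in P2rx7-/- control samples. After status epilepticus it was -7.05, -6.11 and -7.15 in wt and -6.40, -6.22 and -6.34 in P2rx7-/- mice. Every post-SE sample had more passenger relative to guide than every control sample, with a gap of 0.09 to P2rx7-/- control 2.

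**Figure D2:**
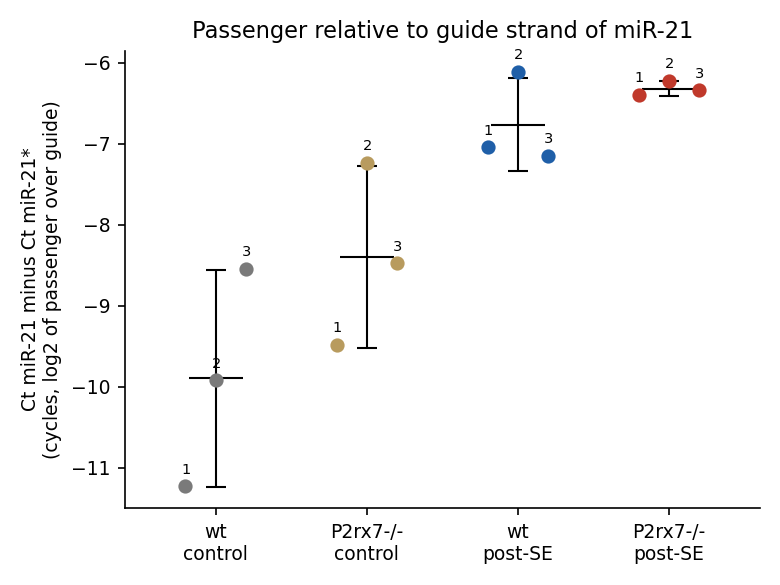
Ct of miR-21 minus Ct of miR-21* in the same sample, in cycles, which is the log2 of passenger over guide strand, with replicate numbers beside the points. Horizontal lines are group means and error bars the SD (n = 3). The control samples run from -11.23 to -7.24 and the post-SE samples from -7.15 to -6.11.

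The arm difference rose by 2.60 ± 0.52 (standard error) after status epilepticus over both genotypes, which is 6.07-fold more passenger per guide (95% confidence interval 2.73 to 13.5). It passed the test over all 57 arm pairs detected in all samples (adjusted p = 0.0288, limma), with all 6 post-SE samples above the control mean, and the two-sided exact permutation test gave p = 0.005, the smallest p it can give. Of the 57 pairs, limma called this 1 (1.75%), and 4 had an unadjusted p under 0.05. In wt mice the arm difference was 3.13 ± 0.73 higher (adjusted p = 0.0914, limma) and in P2rx7-/- mice 2.08 ± 0.73 (adjusted p = 0.467, limma), with exact permutation p = 0.1 in each, the smallest p possible, and limma called 0 of 57 pairs in either, with 4 and 6 pairs at an unadjusted p under 0.05. Post-SE and control samples did not overlap in either genotype, as in 7.02% of pairs in wt and 14% in P2rx7-/- mice with the post-SE samples higher. In either direction, 8 of 57 pairs in wt and 11 in P2rx7-/- mice did not overlap. Without wt control 1 the post-SE samples were higher in 15.8% of pairs in wt mice and lower in 14%. Without wt control 3 the wt value passed (3.81, adjusted p = 0.0233, limma), without wt control 1, the sample that stood apart, it was 2.46 (adjusted p = 0.305, limma), and over all alternatives its adjusted p ran from 0.0233 to 0.413.

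The call over both genotypes was not stable when single samples were left out. It held without wt control 1 (2.27, adjusted p = 0.0379, limma), without P2rx7-/- control 2 (2.89, adjusted p = 0.0154, limma), without wt control 3 (2.94, adjusted p = 0.00825, limma) and without both wt control 1 and P2rx7-/- control 2 (2.56, adjusted p = 0.0104, limma). It was lost without any other single sample, where the change stayed between 2.33 and 2.70 and the adjusted p between 0.0624 and 0.0984 (limma). P2rx7-/- control 2 was singled out by its own miR-21* value, which enters the arm difference, and had the highest arm difference of the controls (-7.24). The passes without it, alone or with wt control 1, cannot decide whether the call holds.

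**Figure D3:**
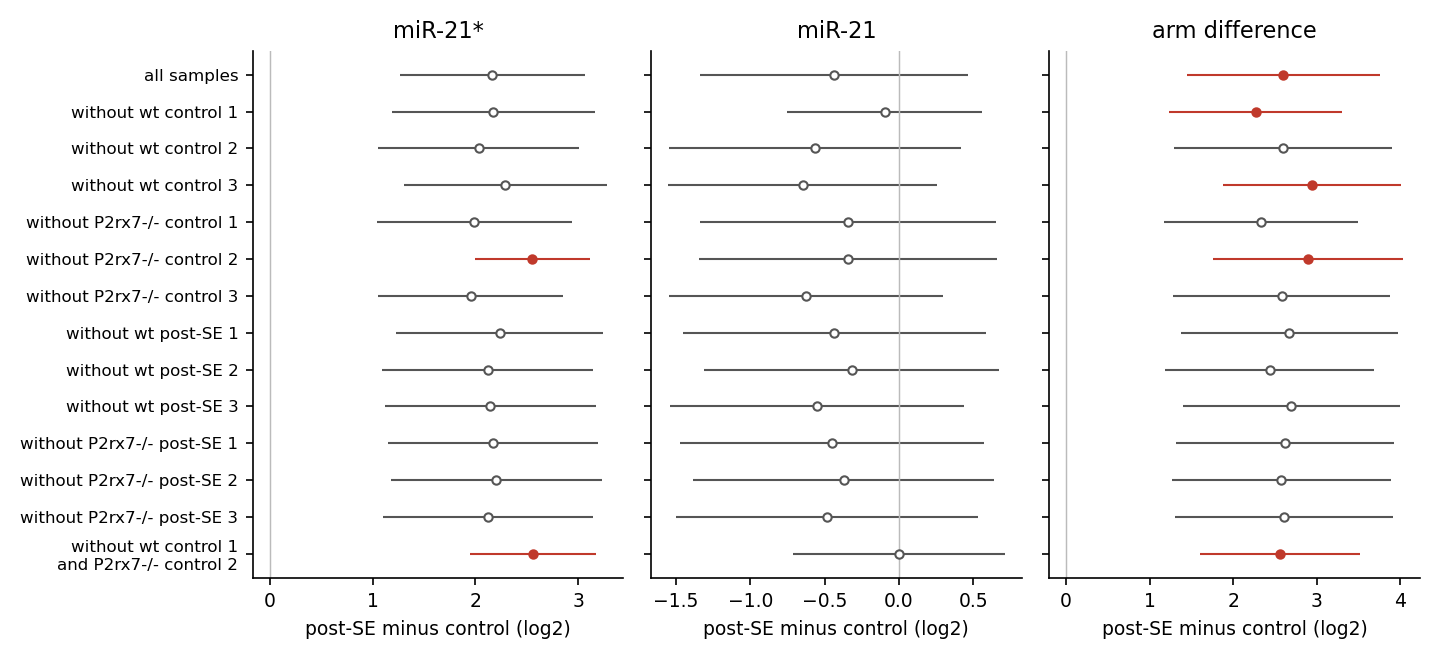
Difference between post-SE and control samples over both genotypes (log2 scale, with the 95% confidence interval of limma) for miR-21*, miR-21 and the arm difference, with all samples, with each sample left out, and without both wt control 1 and P2rx7-/- control 2. Filled red points have an adjusted p below 0.05, over 335 assays for the single arms and over 57 arm pairs for the arm difference. The differences of miR-21* run from 1.96 to 2.56 and those of the arm difference from 2.27 to 2.94, while those of miR-21 run from -0.65 to 0.000994.

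The study asked which miRNAs depend on the P2X7 receptor, and limma called no difference between genotypes in either arm. After status epilepticus, the difference between P2rx7-/- and wt mice was 0.00185 ± 0.57 (standard error) for miR-21* (adjusted p = 0.999, limma), with a 95% confidence interval from -1.28 to 1.28, so that anything from 0.413-fold to 2.43-fold lies within it. It was -0.45 ± 0.57 for miR-21 (adjusted p = 0.999, limma) and 0.45 ± 0.73 for the arm difference (adjusted p = 0.974, limma). The average fold changes relative to wt post-SE samples were 1.01 ± 0.117 (SD, n = 3) for miR-21* and 0.741 ± 0.115 for miR-21, neither of which the rule calls. limma called 0 of 335 assays and 0 of 57 pairs, with 4 assays and 1 pair at an unadjusted p under 0.05.

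In control mice the difference between genotypes was 0.44 ± 0.57 for miR-21* (adjusted p = 0.848, limma), -1.05 ± 0.57 for miR-21 (adjusted p = 0.637, limma) and 1.5 ± 0.73 for the arm difference (adjusted p = 0.651, limma). limma called 0 assays and 0 pairs, with 20 assays and 1 pair at an unadjusted p under 0.05. The fold change rule called miR-21* up (1.86 ± 1.83, SD, n = 3; 21.2% of assays were called up) and miR-21 down (0.513 ± 0.199; 15.5% of assays were called down). Single samples ended these calls. The fold changes of miR-21* were 0.839, 3.97 and 0.757, and without P2rx7-/- control 2 the average was 0.798. Those of miR-21 were 0.629, 0.628 and 0.283, and the average was 0.824 without wt control 1 and 0.628 without P2rx7-/- control 3, neither of which the rule calls. Without wt control 1, 6.27% of assays were called down. With snoRNA135 as normalizer miR-21 was at 0.702, and without normalization miR-21* was at 1.44, also not called. By the geometric mean miR-21* was at 1.36, not called, and miR-21 at 0.482, called down, while the arm difference between genotypes was 0.25 without both samples.

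Relative to the wt control mean, the fold changes of P2rx7-/- post-SE samples were 5.15, 4.72 and 5.93 for miR-21* and 0.456, 0.369 and 0.505 for miR-21. By the rule the passenger was up (5.27 ± 0.614, SD, n = 3; 20.6% of assays were called up) and the guide down (0.443 ± 0.0690; 13.1% of assays were called down) in the same samples. The call of the guide was lost without wt control 1, where its average was 0.712 and 3.88% of assays were called down.

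The interaction asks whether the change after status epilepticus differed between genotypes, and it was smaller than its standard error for both single arms and about equal to it for the arm difference. It was -0.44 ± 0.81 for miR-21* (adjusted p = 0.912, limma), 0.61 ± 0.81 for miR-21 (adjusted p = 0.901, limma) and -1.05 ± 1.04 for the arm difference (adjusted p = 0.844, limma). A 95% confidence interval from -2.25 to 1.36 for miR-21* leaves room for a difference as large as the change itself. limma called 0 of 335 assays and 0 of 57 pairs, with 8 assays and 2 pairs at an unadjusted p under 0.05.

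The other arm pairs show how far an arm difference moves in these samples. Of the 57 pairs, 40 have an arm named * or #, so that their arm difference is passenger over guide as for miR-21. In the other 17 the arms are named -5p and -3p and the difference is 3p over 5p, whose sign is set by the names. Over the 40 pairs the median change after status epilepticus in both genotypes was -0.04, with quartiles of -0.17 and 0.55, and 19 pairs had a positive and 21 a negative value. Over all 57, the median size of the change regardless of sign was 0.46. miR-21 ranked 1 of 57 by the size of the moderated t and 3 of 57 by the size of the change, after miR-770 and miR-99a. The next highest by signed t were miR-335 (1.08 ± 0.31, standard error; adjusted p = 0.157, limma) and miR-770 (3p over 5p, 4.13 ± 1.52, adjusted p = 0.408, limma). For miR-770 the largest change of all pairs came with control samples spread from -7.87 to 1.35. miR-335 was the other pair in which all 6 post-SE samples lay above all 6 control samples (2 of 57 pairs, 3.51%, and 2 also without both wt control 1 and P2rx7-/- control 2), and in it too the passenger arm was higher (0.71) and the guide arm lower (-0.37) after status epilepticus, neither of which passed the test.

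The lowest by signed t were miR-362 (3p over 5p, -0.90 ± 0.41, adjusted p = 0.501, limma), miR-30d (-0.64 ± 0.30, adjusted p = 0.501, limma) and miR-337 (3p over 5p, -0.36 ± 0.23, adjusted p = 0.658, limma). None passed the test. Among larger negative values with larger errors, and so with a t nearer to 0, were those of miR-99a (-2.66 ± 1.98, adjusted p = 0.663, limma), the lowest of the 57, miR-30a (3p over 5p, -1.96 ± 1.26, adjusted p = 0.658, limma) and miR-376a (-1.89 ± 1.54, adjusted p = 0.674, limma). These values came mostly from wt mice, whose controls include wt control 1. In wt and P2rx7-/- mice they were -5.01 and -0.30 for miR-99a, -3.62 and -0.30 for miR-30a, and -3.54 and -0.24 for miR-376a. Others were miR-431 (-1.47 ± 1.03), miR-27a (-1.43 ± 1.41), miR-409 (3p over 5p, -1.05 ± 0.99) and miR-382 (-0.94 ± 0.71), none of which passed. In wt and P2rx7-/- mice the values were -4.18 and 1.24 for miR-431, -2.25 and -0.62 for miR-27a, and -2.09 and 0.22 for miR-382. For miR-409 the negative value came from P2rx7-/- mice (-3.14, against 1.05 in wt). The arm difference of miR-27a was thus opposite in sign to that of miR-21 with all samples. Without wt control 1 the guide miR-27a differed by 0.84 and the passenger miR-27a* by 0.81, nearly the same. The opposite change of miR-27a therefore rested on wt control 1. All of these pairs were named after their values were seen.

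**Figure D4:**
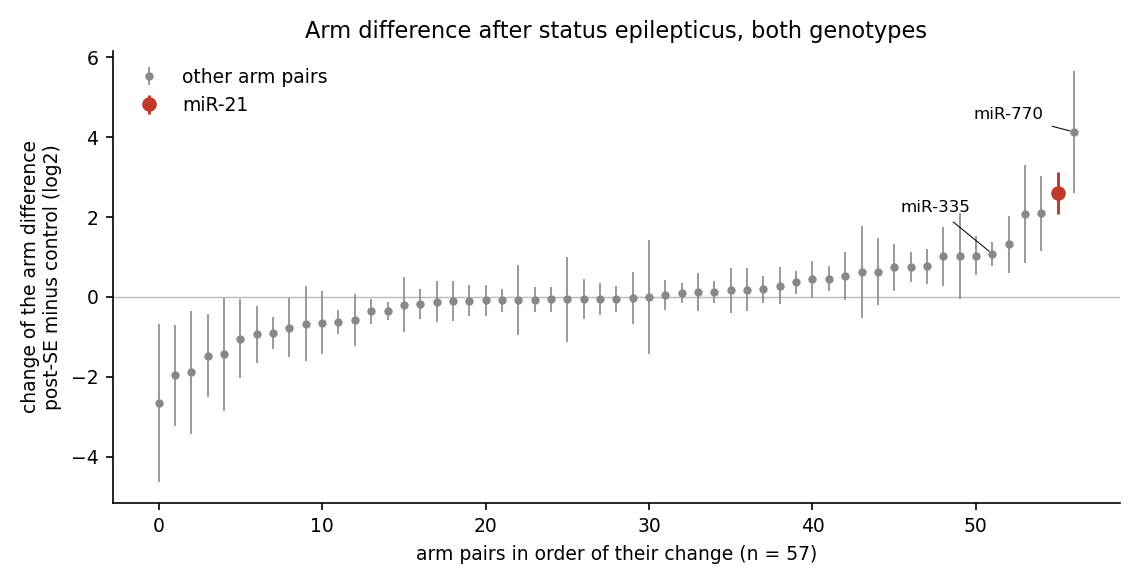
Change of the arm difference after status epilepticus over both genotypes for each of the 57 arm pairs (passenger over guide, or 3p over 5p for arms so named), in log2 units and in order of the change. Points are limma estimates and bars 1 standard error. miR-21 (red, 2.60) lies second from the right after miR-770 (4.13), which has a wider error.

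The assays most like miR-21* over the 12 samples, by Pearson's r of the normalized level, were hsa-miR-27a# (0.918), mmu-miR-685 (0.774), hsa-miR-335# (0.672), mmu-miR-146b# (0.570) and hsa-miR-26b# (0.566), where # marks the passenger strand as * does. Passenger strands named with * or # make up 65 of the 335 assays, and no test of their share was made. Since control and post-SE samples form separate clusters for miR-21*, r was also computed within the 6 samples of each. For miR-27a* it was 0.760 in controls and 0.669 after status epilepticus, and Spearman's rho over all 12 was 0.895. For miR-685 it was 0.213 and -0.397, and for miR-335* -0.479 and -0.376, so the likeness of miR-685 and miR-335* to miR-21* lies in the step between control and post-SE samples. For miR-26b* it was 0.522 and 0.923, and for miR-146b* 0.624 and -0.947. Without the 2 samples farthest from the median of miR-21* (wt control 2 and P2rx7-/- control 3), r was 0.892 for miR-27a*, 0.902 for miR-685, 0.542 for miR-335*, 0.167 for miR-146b* and 0.414 for miR-26b*. The correlations are descriptions, and all values share the normalizer of their sample.

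miR-27a* and miR-335* are the arms shown above as mmu-miR-27a-5p and mmu-miR-335-3p, and neither has the seed of miR-21*. After status epilepticus miR-27a* was 0.89 ± 0.24 higher over both genotypes (adjusted p = 0.334, limma), miR-335* was 0.71 ± 0.18 higher (adjusted p = 0.296, limma) and miR-685 was 2.46 ± 0.45 higher (adjusted p = 0.0521, limma). None passed the test with all samples, although each was higher in 6 of 6 post-SE samples than in any control. miR-685 passed with the median of the assays as normalizer (adjusted p = 0.0404, limma), with a Ct limit of 26 (adjusted p = 0.0446, limma) and without wt control 2 (2.75, adjusted p = 0.0240, limma), and over all its alternatives the adjusted p ran from 0.0240 to 0.283.

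**Figure D5:**
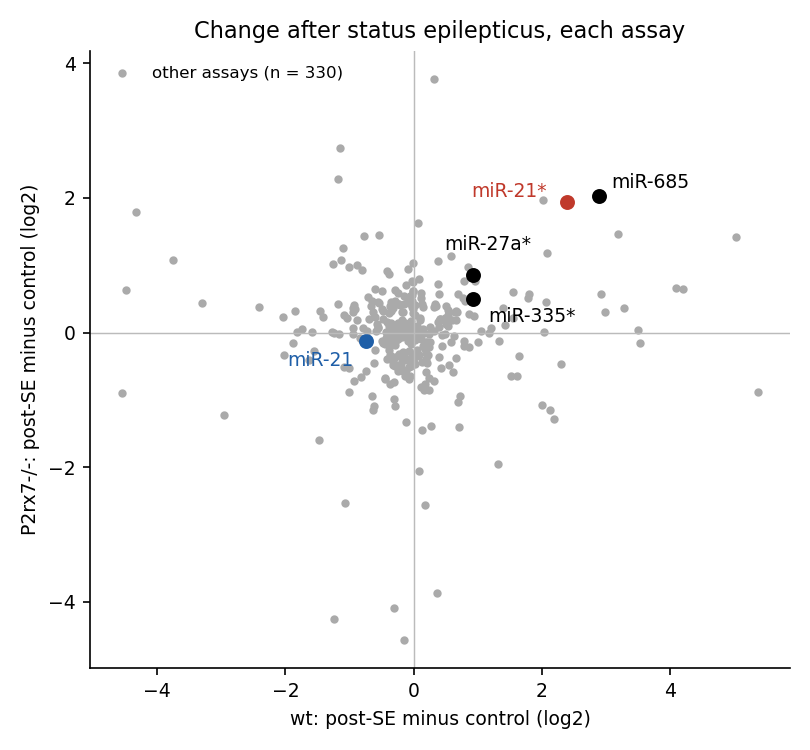
Change after status epilepticus (post-SE minus control, log2 scale) of each of the 335 assays in wt mice (horizontal) and in P2rx7-/- mice (vertical), which share no samples. miR-21* lies at 2.39 and 1.95, miR-685 at 2.89 and 2.03, miR-27a* at 0.93 and 0.85, miR-335* at 0.93 and 0.50, and the guide strand miR-21 at -0.74 and -0.13.

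The guide strand had other neighbours. The assays most like miR-21 were mmu-miR-384-3p (r = 0.953), hsa-miR-425-5p (0.904), hsa-miR-365 (0.882), mmu-miR-379 (0.866) and mmu-miR-1306 (0.844). With wt control 1 and P2rx7-/- control 3 left out, the 2 samples farthest from the median of miR-21, r was 0.715, 0.135, 0.488, 0.179 and 0.0295 in this order, so for miR-425-5p, miR-379 and miR-1306 the likeness rested on those samples. Between both arms of miR-21, r was -0.235 over 12 samples (rho -0.280), 0.0330 in the 6 control and 0.0610 in the 6 post-SE samples, and the guide ranked 246 by its r with miR-21*.

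A list of miRNAs that respond to seizures and injury was set beside both arms, with 14 assays, of which 11 were detected in all samples. limma called 0 of the 11 after status epilepticus over both genotypes, with 2 at an unadjusted p under 0.05 (miR-212 and miR-27a*), against 11 of all 335 assays. The list was made with earlier results of these data known, and 3 of its 11 assays are also myeloid markers. Of the 11, 9 had a positive and 2 a negative difference, with a median of 0.45, against 150 positive, 185 negative and a median of -0.05 for all 335 assays. The split of 9 and 2 was the same under every other normalizer but 8 and 3 without wt control 1, where miR-34a, a p53 target, went from 0.92 to -0.29 (1.54 without wt control 2), also 8 and 3 without P2rx7-/- control 1, and 10 and 1 without wt post-SE 1. miR-212, a neuronal miRNA induced by activity through CREB, differed by 0.63 ± 0.26 (standard error; adjusted p = 0.829, limma). miR-134, a dendritic miRNA that limits spine size, differed by 0.45 ± 0.21 (adjusted p = 0.829, limma). miR-27a, the guide of the passenger most like miR-21*, differed by 2.32 ± 1.47 (adjusted p = 0.829, limma), an error larger than that of its passenger, and ran from 0.84 without wt control 1 to 3.08 without wt control 3 with single samples left out. miR-155, an inflammatory miRNA whose gene is an AP-1 target like that of miR-21, differed by 0.50 ± 0.97 (adjusted p = 0.903, limma), and ran from -0.13 without P2rx7-/- control 1 to 1.43 without P2rx7-/- control 3. miR-146b, a relative of the inflammation-induced miR-146a, differed by 0.32 ± 0.29 (adjusted p = 0.834, limma), and ran from 0.16 without wt control 1 to 0.46 without wt control 3. Of the other miRNAs with AP-1 target genes, miR-221 differed by -0.35 ± 0.45 (adjusted p = 0.878, limma), and ran from -0.54 without P2rx7-/- control 3 to 0.04 without P2rx7-/- control 1, and miR-222 was detected in 2 samples. None of these differences is as large, relative to its error, as that of miR-21*.

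Markers of cell types were read to check the tissue and to see what moved with miR-21*. Of 7 neuronal assays, miR-128a and miR-137 were detected in all samples, with median Ct of 14.4 and 14.6, and miR-124a, a neuron-specific miRNA, was detected in 11 samples (median Ct 14.6). miR-9 (median Ct 10.5) was listed in 4 samples and miR-138 (10.6) in 10, close to the lowest Ct listed for any miRNA, 10.1. The liver miRNA miR-122 had a median Ct of 24.1 in 11 samples, the heart miRNA miR-208b was listed in 1 sample, and the muscle miRNAs miR-133a and miR-206 had median Ct of 16.1 and 22.7. Neuronal markers were thus present at low Ct, as was miR-133a, while the other miRNAs named here from liver, heart and muscle were at high Ct.

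limma called 0 of the marker assays after status epilepticus over both genotypes, with 0 at an unadjusted p under 0.05. The differences were 0.76 for the neuronal miR-137 and 0.07 for miR-128a, and the latter was negative with snoRNA202 as normalizer, in the fold changes of the authors and without P2rx7-/- post-SE 1 (-0.09), and at most 0.16 with another sample left out. They were 0.91, 1.07 and -0.46 for miR-219, miR-219-2-3p and miR-338-3p of oligodendrocytes. Without wt control 1 these values were 0.22 for miR-137, 0.00854 for miR-128a, and 0.43, 0.39 and -0.23 for the oligodendrocyte miRNAs, so that each lay nearer to 0. Other left-out samples moved them away from 0, at most to 1.07 for miR-137 and to 1.25, 1.42 and -0.67 for the oligodendrocyte miRNAs. miR-219 was at 0.37 without P2rx7-/- post-SE 1, the sample with the highest summed level of the oligodendrocyte assays (4.13, against 1.34 to 2.63 in the other samples). Of the microglial and other myeloid markers, miR-142-3p differed by 0.40 and the 2 assays of miR-223 by -0.35 and -0.23. Single samples moved these values. miR-142-3p ran from 0.08 without wt post-SE 1 to 0.58 without wt post-SE 2, the first miR-223 assay from -0.54 without wt control 1 to -0.07 without wt control 3, and the second from -0.48 without P2rx7-/- post-SE 3 to 0.02 without wt post-SE 1. The summed level of these 3 assays (log2 scale) was 5.0, 5.25 and 6.70 in wt control samples and 5.48, 6.37 and 5.63 in P2rx7-/- control samples, with miR-223 the most abundant. In post-SE samples it was 5.12, 5.64 and 4.57 in wt and 5.83, 5.21 and 6.54 in P2rx7-/- mice, so that the groups overlapped.

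miR-145 of mural cells differed by 1.02 ± 0.67 (standard error), with 2.04 in wt and 0.00634 in P2rx7-/- mice, and its difference over both genotypes was 0.54 without wt control 1, 0.52 without wt post-SE 1 and 1.33 without wt control 3. It was the 1 of 5 endothelial and mural assays detected in all samples. With assays detected in at least 9 samples, the endothelial miR-126 and miR-126* differed by 0.03 and 0.13 and the 2 assays of miR-143 of mural cells by -0.32 and -0.41, none of them called by limma. This rule also added the myeloid miR-142-5p (-0.37, opposite to miR-142-3p) and a miR-338 assay of oligodendrocytes (0.72 ± 1.70, opposite to miR-338-3p). The neuronal assays it added were miR-124a (0.40), miR-124* (0.19), miR-138 (3.37 ± 2.12) and miR-9* (-0.10). None of these was called by limma either. The muscle miRNAs miR-133a and miR-206 differed by 0.06 and -0.83, and the sign of the former was not stable. It was negative with snoRNA202 as normalizer, in the fold changes of the authors and without any 1 of 5 samples (wt control 2, P2rx7-/- control 3, wt post-SE 2, wt post-SE 3 and P2rx7-/- post-SE 3), and ran from -0.16 without wt control 2 to 0.24 without wt control 1. The erythrocyte miRNAs miR-486 and miR-451 differed by -0.94 ± 0.46 and -1.02 ± 0.53 (adjusted p = 0.829 for both, limma), opposite to miR-21*, and by -0.72 and -0.60 without wt control 1. With single samples left out they ran from -1.20 to -0.65 and from -1.36 to -0.60. Their summed level was 4.62, 3.33 and 2.41 in wt control samples and 2.72, 3.01 and 4.15 in P2rx7-/- control samples. In post-SE samples it was 2.12, 2.36 and 2.30 in wt and 2.62, 2.39 and 3.23 in P2rx7-/- mice. It was lower in all 3 wt samples than in their controls, narrowly (2.36 against 2.41), and overlapped in P2rx7-/- mice. Of the 335 single assays, 17 (5.07%) were lower in every wt post-SE sample than in every wt control. Without wt control 1 this held for 21 (6.27%). The part of these cell types in the values of miR-21 was not tested.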

How the data were processed

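The Ct table deposited by the authors holds unnormalized values for 653 assay lines. Their other table, with the ratio of each assay and sample to wt control 1 (fold changes, scaled by the authors with the mean Ct of the sample), served as an alternative. The software that called the Ct is not given in the sources used here. Assays with a Ct below 28 in all samples (335 of 619 miRNA lines) were normalized with their mean Ct. limma 3.58.1 (R 4.3.3; lmFit and eBayes, 1 coefficient per group) was fitted to -ΔCt over 335 assays and to the Ct difference over 57 arm pairs, with Benjamini-Hochberg adjustment and a threshold of 0.05. Arm pairs are assays whose names differ by a final * or #, or by -5p and -3p. Fold changes are 2 to the power of -ΔΔCt. Exact permutation tests, correlations and figures used Python 3.11.15 with scipy 1.17.1, pandas 2.3.3, numpy 2.4.6 and matplotlib 3.10.9.

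Groups came from the sample labels. Since each sample is a separate pool, p-values measure the spread between pools. Alternatives were the normalizer, the Ct limit, the detection rule, leaving out each sample, a replicate block, the samples in the fit, robust and trend options, the two-group test named in the methods and the geometric mean. The alternative without wt control 1 and P2rx7-/- control 2 was chosen after seeing the data. The members and lists were chosen with earlier results of these data known. Named were both arms, miRNAs sharing a seed or the name miR-21, the 5 assays most like each arm, the 3 highest and 3 lowest arm pairs by moderated t, control assays and the listed miRNAs.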

Additional observations from a re-analysis of the deposited data

Results flagged for a closer look

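The wells of a plant miRNA (ath-miR159a), which enter no comparison, gave a signal in a few samples. Of 24 wells, 22 were empty and 2 gave a Ct, of 23.9 in wt control 1 and of 13.5 in P2rx7-/- post-SE 1, while 10 samples gave none. The level of miR-21* in P2rx7-/- post-SE 1 (-3.78) lay between those of the other samples of its group, and a link between these wells and the miR-21 assays was not tested.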

How the results depend on the processing

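Of the refitted values, 376 kept their direction and their side of the threshold, 11 passed it in addition, 9 no longer passed and 18 changed sign. Where fewer samples or assays were used, the alternative itself differs in that way, and otherwise the cause was not tested.

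miR-21* over both genotypes passed with the median normalizer (2.19), a Ct limit of 26 (2.15) and without both samples (2.56), and ran from 1.96 to 2.55 with single samples left out. Here and in P2rx7-/- mice, a pass without both samples depends on P2rx7-/- control 2, singled out by its own miR-21* value, and cannot decide. Without wt control 1 alone, miR-21* over both genotypes did not pass (adjusted p = 0.110, limma). The difference passed in 4 of 24 alternatives, and in 1 of the 12 with a single sample left out. In wt mice it passed the methods' two-group test, unadjusted (2.39), with a range of 2.12 to 2.64 over left-out samples. In P2rx7-/- mice it did not pass that test (1.95) but passed without both samples (2.72; range 1.52 to 2.72). Between genotypes in controls it was -0.0129 without normalization and -0.31 without both samples (range -0.33 to 0.87). Between post-SE groups it was -0.0299 with quantile normalization and -0.0181 in the fold changes of the authors (range -0.14 to 0.10). The interaction was 0.0327 with snoRNA202, 0.0560 without normalization and 0.31 without both samples (range -0.87 to 0.33).

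miR-21 over both genotypes was 0.000994 without both samples. In P2rx7-/- mice it was 0.0587 without normalization and 0.0596 without both samples (range -0.51 to 0.0603), and its interaction ran from -0.0740 to 1.03 with single samples left out and was 1.11 without normalization.

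The arm difference over both genotypes ran from 2.27 to 2.94 and lost its call without 9 of 12 single samples. It passed the methods' test, unadjusted, in wt (3.13; range 2.46 to 3.81) and P2rx7-/- mice (2.08). Its interaction was 0.20 without both samples, and ran from -1.73 to -0.39 with single samples left out. Over the same left-out samples, the arm difference between genotypes ran from 0.83 to 2.18 in controls and from 0.26 to 0.78 after status epilepticus.

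Average fold changes of miR-21* in wt were 4.13 with snoRNA202 and 4.42 without normalization (range 4.38 to 6.30), and in P2rx7-/- mice 4.49 without normalization (range 2.89 to 6.61). In P2rx7-/- against wt controls they ran from 0.798 to 2.40. In P2rx7-/- post-SE against wt control they were 7.12 with snoRNA135 and 4.45 without normalization (range 4.37 to 6.28), and against wt post-SE 1.12 with the median, 1.18 with snoRNA135 and 1.20 with snoRNA202. Those of miR-21 ran from 0.462 to 0.995 in wt, and were 1.07 without normalization in P2rx7-/- mice (range 0.706 to 1.05). In P2rx7-/- against wt controls they ran from 0.382 to 0.824, and in P2rx7-/- post-SE against wt control they were 0.596 with snoRNA135 (range 0.330 to 0.712). Against wt post-SE they were 0.866 with snoRNA135 and 0.891 with snoRNA202 (range 0.630 to 0.871).

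limma called 0 of 335 assays over both genotypes, 2 with the median normalizer, 2 of 313 with a Ct limit of 26 and 1 without both samples. It also called 1 without wt control 2 and 1 without P2rx7-/- control 2. With snoRNA202 the median of all assays was -0.20 in place of -0.05. With the replicate number as a block, miR-21* differed by 2.17 (adjusted p = 0.152, limma), the arm difference by 2.60 (adjusted p = 0.0248, limma), and no call of either arm or their difference changed. Deviations of same-numbered samples correlated from -0.227 to 0.277, over 0.1 in 4 of 18 pairs, and 6 of 12 samples correlated best with one of their own number, so the numbers were not taken to pair the samples.

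Single Ct readings, pre-amplified cDNA and pools of 2 hippocampi limit the precision of each value, and the Ct of 22.3 to 25.7 of the passenger lies nearer the limit of 28 than that of the guide. Samples of 3 per group leave wide intervals for genotype differences. RNA quality and single mice were not analysed here.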
